A study of Mus musculus with 6 samples.

Results

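The vascular adhesion molecules Vcam1 and Madcam1 and 7 of their relatives (Icam1, Icam4, Mcam, Alcam, Sele, Selp and Selplg) were followed in embryonic mouse spleens that differed in the gene for the transcription factor Tlx1. The 9 genes were taken by name, and each was read from the brightest probe set that carries its symbol alone. Of the 9, 8 had such a probe set, each exactly 1, and all 8 were among the 18710 genes tested. Selp, the selectin of platelets and endothelium, is not listed in the probe annotation used and was not analysed here.

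Spleens were taken at E13.5. One group was 3 samples heterozygous for Tlx1 and the other 3 samples homozygous for it, each hybridised to its own Affymetrix array. The labels give the zygosity but neither the allele, the strain nor whether a sample is 1 embryo or a pool, and homozygous is taken to mean homozygous for the altered allele. The heterozygous controls therefore carry 1 altered copy too, and no wild-type spleen was analysed here. The labels do not say whether replicates are separate animals, and for the homozygous spleens the spread behind a p-value may be technical only. The heterozygous arrays differed in Y-linked genes, so they were not all repeats of 1 RNA.

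Adhesion molecules of the vessel wall and stroma hold passing blood cells and let them settle in an organ. Selectins catch cells loosely by their sugars, and immunoglobulin-type molecules such as VCAM1, MAdCAM1 and the ICAMs then bind integrins on the blood cell firmly. In the spleen MAdCAM1 marks the lining of the marginal sinus, where white cells leave the blood, and VCAM1 is carried by stromal organiser cells and macrophages as well as by endothelium. NF-kB signalling induces many of these genes, and the NK2 homeobox factor Nkx2-3 is needed for Madcam1 in the adult spleen.

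The sequence upstream of Madcam1 is shown because this gene had the largest fall among the members, and that of Icam1 because it is a classical NF-kB-inducible gene of the same superfamily that did not pass the test. Both are the 250 bases before the RefSeq start, written 5′ to 3′ on the gene's strand. Madcam1 is at chr10:79664309-79664558 and Icam1 at chr9:21015690-21015939, both on the plus strand of GRCm38.p6. Capitals mark matches on either strand to ACTTTCC, which ends the NF-kB site of the immunoglobulin kappa enhancer and reads GGAAAGT on the other strand, and to AAGTG, the core bound by NK2 homeodomains.
Madcam1: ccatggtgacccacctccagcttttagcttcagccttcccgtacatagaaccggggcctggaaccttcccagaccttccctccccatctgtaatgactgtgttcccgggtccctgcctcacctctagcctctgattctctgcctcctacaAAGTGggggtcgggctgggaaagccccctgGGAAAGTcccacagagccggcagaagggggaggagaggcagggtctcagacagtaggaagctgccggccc
Icam1: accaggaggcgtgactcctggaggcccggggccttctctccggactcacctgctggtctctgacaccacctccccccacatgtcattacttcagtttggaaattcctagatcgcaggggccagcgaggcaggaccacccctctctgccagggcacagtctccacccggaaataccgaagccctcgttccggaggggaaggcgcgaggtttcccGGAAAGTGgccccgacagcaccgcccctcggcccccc

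RefSeq upstream sequences were found for 7 of the 9 members, and Vcam1 and Selplg are the others. Madcam1 held 1 ACTTTCC on the minus strand, 70 to 64 bases before the start, and 1 AAGTG 100 to 96 bases before it. Icam1 also held 1 of each, 37 to 31 and 34 to 30 bases before the start, where the matches overlap and share AAGT. Sele held 1 AAGTG, and Icam4, Mcam, Alcam and Selp held neither motif. Among 32851 mouse windows of the same length 4.2% held ACTTTCC and 40.7% held AAGTG. Both motifs were chosen after the Madcam1 sequence had been seen. The whole kappa enhancer site and a looser NF-kB pattern had been searched before them, and each matched Madcam1 and not Icam1, whereas the shorter ACTTTCC matches both genes. Stretches that a different NF-kB pattern might match, such as ggaaattcc in the Icam1 window, are not marked. The matches therefore describe letters only, depend on the pattern chosen and are not measured binding.

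Across the series 17.0% of genes passed in limma at a Benjamini-Hochberg adjusted p below 0.05, 10.4% as higher and 6.56% as lower in homozygous spleens. Array medians were 106 to 110 intensity units, and log2 values correlated at 0.995 to 0.997 within groups and 0.989 to 0.993 between them. Tlx1 itself fell from 750.0 ± 65.3 to 193 ± 19.9 (SD, n = 3). The number of genes called, 3178, was lower without heterozygous replicate 1 (1689) or 2 (1376) and without homozygous replicate 1 (1198) or 3 (1822), and it was 1647 with a Y-linked covariate, the mean level of the measured Y-linked genes. Mean log2 levels of 3 Y-linked genes were 8.76 and 8.99 on heterozygous arrays 1 and 3 and 8.07 to 8.22 on the other arrays, and none of the 3 passed (−0.48 to −0.46; 2 had an unadjusted p below 0.05). Without heterozygous replicate 2 all 3 were called lower with a median of −0.74, without heterozygous replicate 3 the median was −0.29, and 1 was called with a variance trend. Markers of the labelled tissue were present in both groups. Those given here were named partly after their values were seen and were all called lower in homozygous spleens. The lists they come from moved both ways, against 10.4% of all genes higher and 6.56% lower. Of 12 mesenchyme markers 5 rose and 1 fell, and of 8 mesothelium markers 1 rose and 1 fell. Of 22 endothelium markers 1 rose and 15 fell. The spleen mesenchyme gene Tcf21 was at 3424 ± 74.4 and 2863 ± 195 (SD, n = 3), the mesothelial gene Wt1 at 2208 ± 43.1 and 1758 ± 97.7, and the endothelial cadherin gene Cdh5 at 886 ± 50.1 and 715 ± 55.5 in heterozygous and homozygous spleens.

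Among the 8 measured adhesion genes Vcam1 rose and Madcam1 fell, and the other 6 did not pass. That is 2 of 8 called against 17.0% of all genes. Their median log2 fold change, homozygous minus heterozygous on log2(intensity + 1), was 0.07, and that of all genes tested was 0.02. The groups did not overlap for 4 of the 8 genes, against 38.3% of all genes. An unadjusted p below 0.05 was found for 5 of the 8, against 34.1% of all genes.

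**Figure D1:**
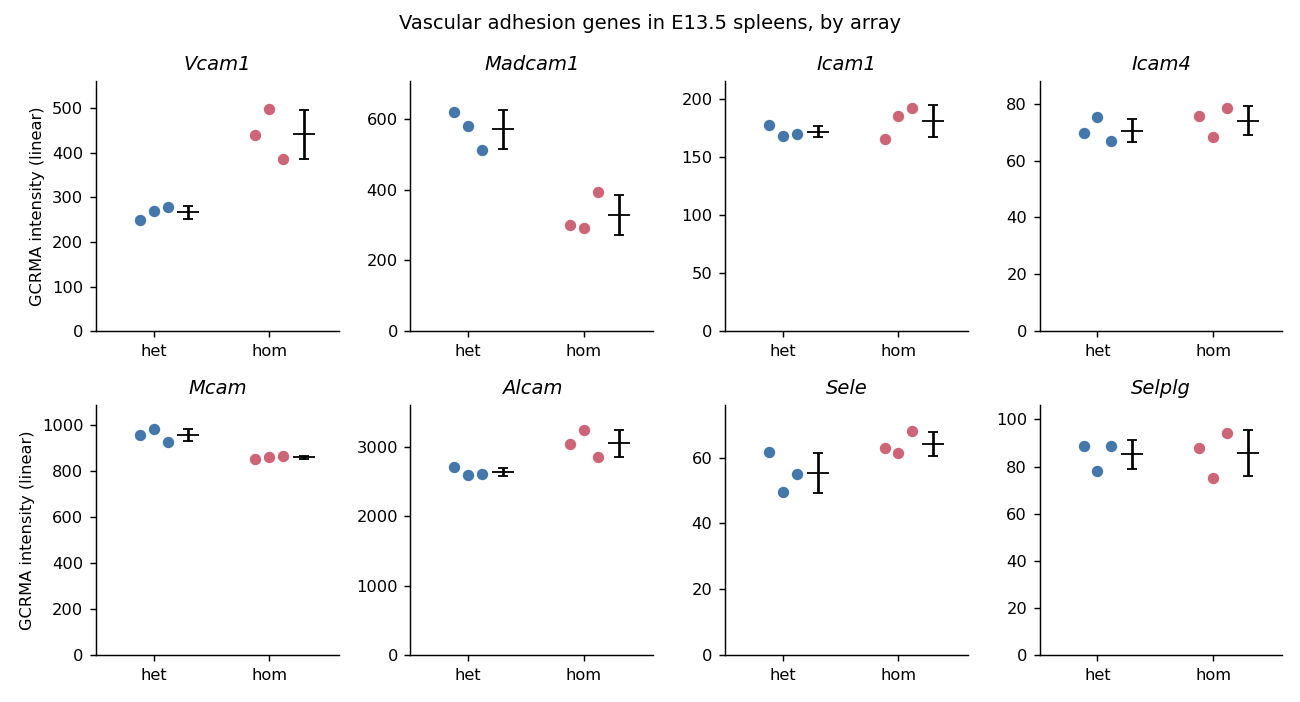
GCRMA intensity (linear scale, starting at 0) of the 8 measured adhesion genes on each of 3 heterozygous (het, blue) and 3 homozygous (hom, red) arrays, with the group mean and SD in black. All homozygous values of Vcam1 (387 to 498) lie above all heterozygous ones (249 to 279), and all homozygous values of Madcam1 (292 to 392) lie below all heterozygous ones (511 to 619).

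Vcam1 encodes a ligand of the integrin made with Itga4, and it holds lymphocytes and blood progenitors to endothelium and stroma. Its intensity was 249, 271 and 279 on heterozygous arrays 1 to 3 and 439.6, 498 and 387 on homozygous arrays 1 to 3. Every homozygous spleen was above every heterozygous one, and the homozygous spleens were the more scattered group. The means were 266 ± 15.5 and 441 ± 55.3 (SD, n = 3). This 1.65-fold rise is a log2 fold change of 0.72 ± 0.10 (SE, adjusted p = 0.00285 in limma). Counted from the highest estimate Vcam1 stood at rank 69 of the 18710 genes.

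Madcam1 encodes the mucosal addressin, which binds the integrin made of Itga4 and Itgb7 and directs lymphocytes to gut and spleen vessels. Its intensity was 619, 579 and 511 on heterozygous arrays and 300.2, 292 and 392 on homozygous arrays. The highest homozygous spleen, replicate 3, was still below the lowest heterozygous one. The means were 569.9 ± 54.6 and 328 ± 55.5 (SD, n = 3). This 1.75-fold fall is a log2 fold change of −0.80 ± 0.12 (SE, adjusted p = 0.00466 in limma). Counted from the lowest estimate it stood at rank 95 of the 18710 genes.

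Homozygous replicate 3 was the sample nearest to the heterozygous group for both genes. Without it the estimates were larger in size, at 0.81 for Vcam1 and −0.94 for Madcam1. Without homozygous replicate 2 they were smallest, at 0.63 and −0.73. In all 6 fits that left out 1 array the calls of both genes held. Under the Y-linked covariate Vcam1 was at 0.73 (adjusted p = 0.0201) and Madcam1 at −0.88 (adjusted p = 0.0194).

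**Figure D2:**
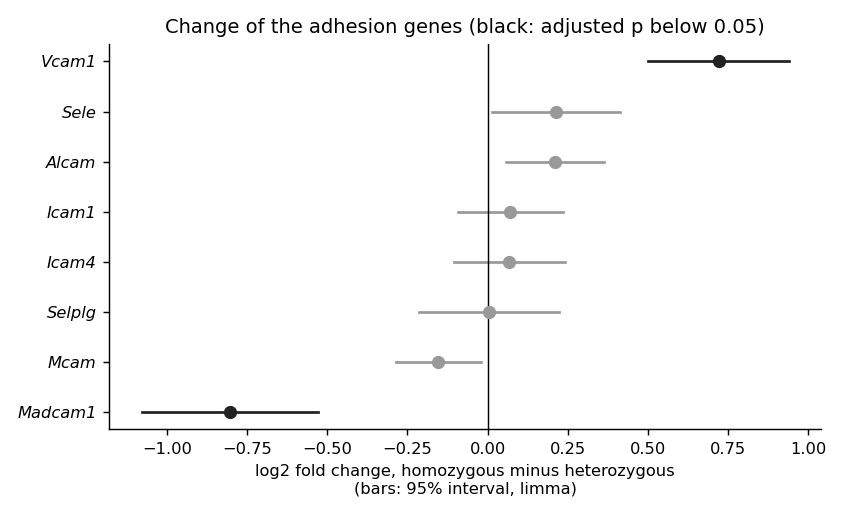
Log2 fold change (x axis, homozygous minus heterozygous) of the 8 adhesion genes with its 95% interval from limma, not adjusted for multiple testing. Vcam1 (0.72) and Madcam1 (−0.80) lie farthest from 0 on either side and are the genes drawn in black, which passed at an adjusted p below 0.05; the grey genes lie between −0.15 and 0.21.

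Icam1 and Icam4 are neighbours on chromosome 9. ICAM1 binds the leukocyte integrins that contain Itgb2 and is strongly induced by inflammatory signals, and ICAM4 is an adhesion protein of red cells. Icam1 was at 177, 168 and 169 on heterozygous arrays and at 165, 185 and 192 on homozygous arrays. The homozygous group held both the lowest and the highest value, and the log2 fold change was 0.07 ± 0.07 (SE, adjusted p = 0.526 in limma; 95% interval −0.09 to 0.24).

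Icam4 was at 69.6, 75.2 and 67.0 on heterozygous arrays and at 75.7, 68.2 and 78.3 on homozygous arrays. The groups overlapped and the log2 fold change was 0.07 ± 0.08 (SE, adjusted p = 0.564 in limma; 95% interval −0.10 to 0.24). Its sign turned under the Y-linked covariate (−0.01) and after cyclic loess (−0.04). Beside this, of 14 measured erythroid markers 7 fell, against 6.56% of all genes, and 1 estimate lay above 0, with a median of −0.49. Their summed intensity was 13790 to 15030 in heterozygous and 10710 to 11530 in homozygous spleens. Without homozygous replicate 1, or with the Y-linked covariate, 3 fell, and without heterozygous replicate 3 the median was −0.30. The part of red cells in the Icam4 value was not tested.

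Sele encodes E-selectin, made by endothelium under inflammatory stimulation, and Selplg the main selectin ligand on white cells. Sele was dim, at 61.5, 49.6 and 54.9 on heterozygous arrays and 62.8, 61.4 and 68.2 on homozygous arrays. Heterozygous replicate 1 reached the homozygous range and the other heterozygous spleens lay below it. The log2 fold change was 0.21 ± 0.09 (SE), its adjusted p was 0.125 in limma and its 95% interval ran from 0.01 to 0.41. Selplg was at 88.9, 77.9 and 88.8 on heterozygous arrays and 87.9, 75.0 and 94.3 on homozygous arrays. The groups covered nearly the same range, and the log2 fold change was 0.01 ± 0.10 (SE, adjusted p = 0.974 in limma; 95% interval −0.21 to 0.22). Its sign was not settled, and turned under 6 of 19 other settings, among them quantile normalization (−0.03), median centring (−0.01) and cyclic loess (−0.08). No background calls were used, so these low intensities do not show that Sele or Selplg was expressed.

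Selplg is a white cell gene. None of 18 myeloid and leukocyte markers passed in limma, against 17.0% of all genes, while 3 had an unadjusted p below 0.05, against 34.1%. Their median was 0.04, with summed intensities of 5804 to 6219 in heterozygous and 5978 to 6461 in homozygous spleens. The pan-leukocyte gene Ptprc was at 127 ± 5.10 and 119.8 ± 19.9 (SD, n = 3). Nearest the threshold was Mrc1, a mannose receptor of macrophages (0.27, adjusted p = 0.0574), which passed under 7 of 19 other settings. Lyz2, the lysozyme gene of myeloid cells, was at −0.27 (adjusted p = 0.136) and passed with array weights.

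Mcam and Alcam are broader adhesion molecules. MCAM sits at endothelial junctions and on mural cells, and ALCAM on mesenchyme, neurons and epithelium, where it binds itself and CD6 of T cells. Mcam was at 956, 979 and 926 on heterozygous arrays and 849, 859.8 and 862 on homozygous arrays. Every homozygous spleen was below every heterozygous one, yet the step was small, at −0.15 ± 0.06 on the log2 scale (SE, adjusted p = 0.101 in limma; 95% interval −0.29 to −0.02). Mcam passed under 1 of 19 other settings, a variance trend (adjusted p = 0.0456).

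Alcam was at 2706, 2595 and 2611 on heterozygous arrays and 3051, 3249 and 2863 on homozygous arrays. The homozygous spleens were all higher, with a log2 fold change of 0.21 ± 0.07 (SE, adjusted p = 0.0639 in limma; 95% interval 0.06 to 0.36). Alcam passed with 16 in place of 1 added before the logarithm (adjusted p = 0.0432), with a variance trend (0.0162) and with array weights (0.0339). In simulated data with the spread of these arrays 4% of genes changed by 0.25 and 60% of those changed by 0.5 were recovered, when few genes changed. The estimates of Alcam, Sele and Mcam are no larger than the smaller of these sizes. The simulation called 127 genes and the data 3178, so these shares may not hold for the data. Some genes of this size did pass in the data, such as Itgav (0.23).

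**Figure D3:**
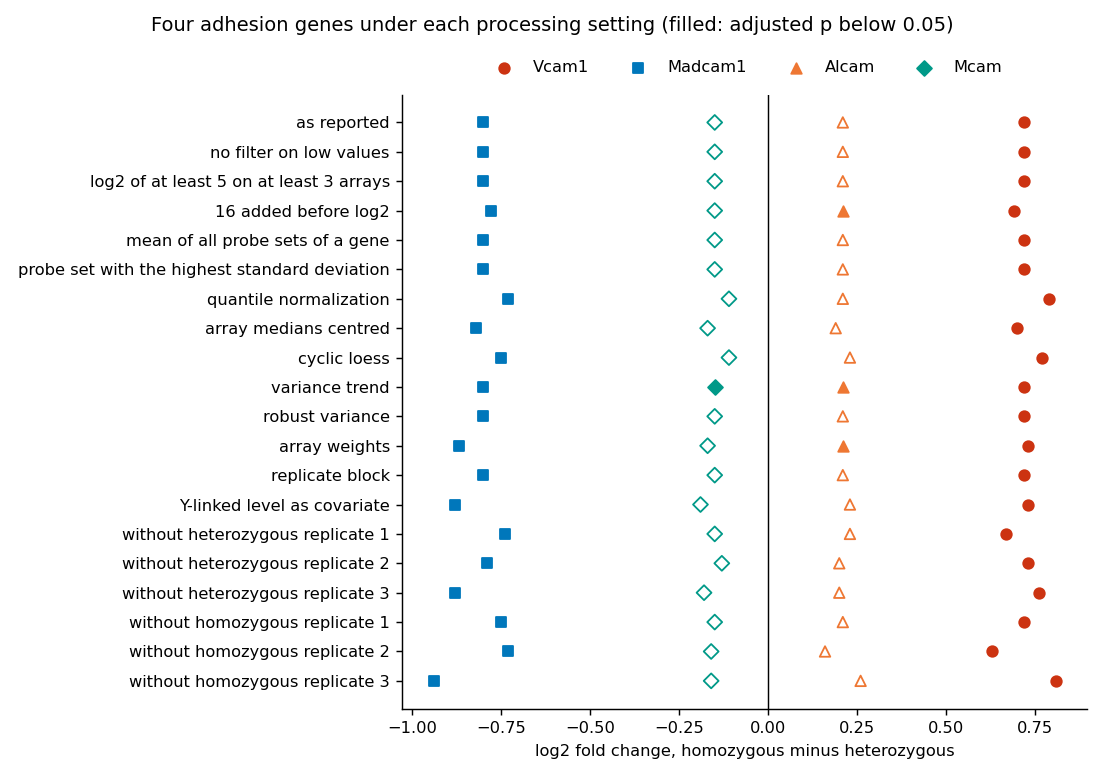
Log2 fold change (x axis, homozygous minus heterozygous) of Vcam1, Madcam1, Alcam and Mcam as reported and under 19 other settings, with filled symbols where the adjusted p was below 0.05. Vcam1 (0.63 to 0.81) and Madcam1 (−0.94 to −0.73) are filled throughout, Alcam (0.16 to 0.26) under 3 other settings and Mcam (−0.19 to −0.11) under 1.

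The adhesion genes were set beside the vessels that carry many of them. Of 22 endothelium markers 15 fell and 1 rose, with a median of −0.32, against 6.56% of all genes falling. Their summed intensity was 11460 to 11700 in heterozygous and 8901 to 9687 in homozygous spleens. Tek, the angiopoietin receptor, fell by 0.85 on the log2 scale, and Tie1, its partner receptor, fell by 0.55. The platelet-endothelial adhesion gene Pecam1 fell from 836 ± 28.7 to 617 ± 37.7 (SD, n = 3). Stab1, a scavenger receptor of sinusoidal endothelium, was the marker that rose (0.20, adjusted p = 0.0445 in limma), a call lost in every fit without 1 array, after median centring, with the replicate block and under the Y-linked covariate. Without homozygous replicate 1 the number that fell was 8, and without heterozygous replicate 1 it was 9, with medians of −0.31 and −0.33, and it was 8 with the Y-linked covariate. In these bulk samples fewer endothelial cells and less RNA per endothelial cell cannot be told apart.

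Of 17 endothelial junction and adhesion genes 7 fell and 1 rose (against 6.56% and 10.4% of all genes), with a median of −0.16. This list shares Pecam1, Cdh5 and Esam, all called lower, with the endothelium markers, so the counts overlap. Cd34, a sialomucin that can serve as a selectin ligand, fell from 1600.4 ± 18.1 to 943 ± 45.5 (SD, n = 3), a step of −0.76 in log2 units. Esam, a junction molecule, fell by 0.55, and Icam2, the constitutive ICAM of endothelium, fell by 0.50 (adjusted p = 0.00682 in limma). The rise was that of Cd47, a broadly expressed partner of integrins (0.44). Without homozygous replicate 1, or with the Y-linked covariate, 4 of these genes fell, and without heterozygous replicate 1, or after quantile normalization, the median was −0.10. So Madcam1 moved the same way as Pecam1, Icam2, Esam and Cd34, and Vcam1 the opposite way.

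Each member was then measured against the mean log2 level of the 22 endothelium markers on the same array. That mean differed by −0.33 between homozygous and heterozygous spleens. On this relative scale Madcam1 was still lower in homozygous spleens, by −0.48, with values of 0.46, 0.40 and 0.20 on heterozygous and −0.21, −0.26 and 0.10 on homozygous arrays. Vcam1 was higher by 1.05, from −0.85, −0.70 and −0.67 to 0.34, 0.51 and 0.08. Cd34 was lower by nearly as much as Madcam1 (−0.44), and Nkx2-3 was at 0.00 with groups that overlapped. The other 6 genes were all higher, by 0.17 (Mcam) to 0.54 (Alcam and Sele), a difference that includes the fall of the reference. The groups did not overlap for any of the 8 genes, but on this scale that held for 82.0% of all genes, 80.6% as higher and 1.39% as lower in homozygous spleens, so the 7 members on the higher side lie on the side of most genes. Each of the 8 gave p = 0.1 in an exact two-sided permutation test over the 6 arrays, the smallest p that 3 against 3 can give. Mcam thus changed side with the scale, from −0.15 on its own to 0.17 relative to endothelium.

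**Figure D4:**
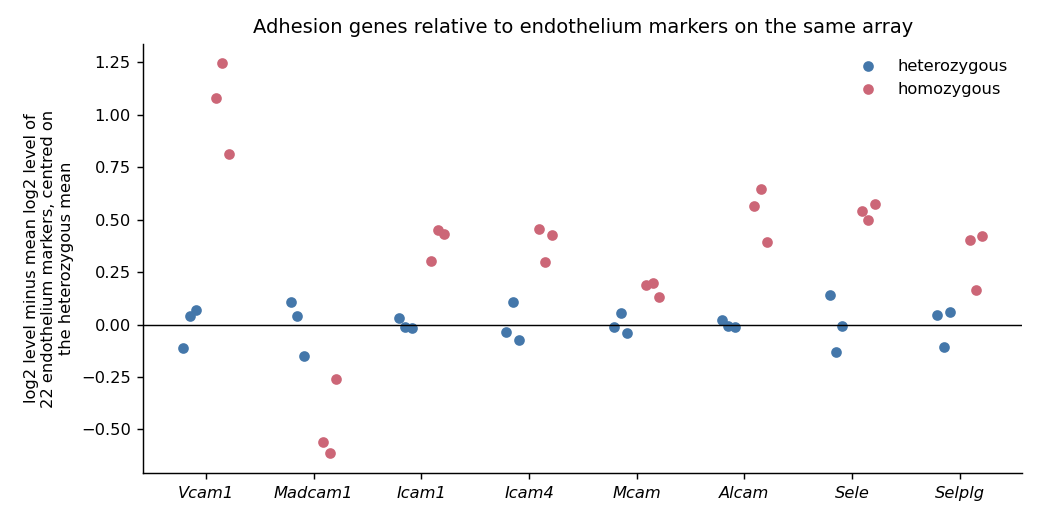
Log2 level of each adhesion gene minus the mean log2 level of 22 endothelium markers on the same array, centred on the heterozygous mean of that gene (y axis, log2 units), for 3 heterozygous (blue) and 3 homozygous (red) arrays. Madcam1 is the gene whose homozygous points lie below its heterozygous points (a difference of −0.48), and Vcam1 has the widest gap above them (1.05).

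Vcam1 is also made outside endothelium, so stromal markers were read in the same samples. Of 12 mesenchyme markers 5 rose and 1 fell (against 10.4% and 6.56% of all genes), with a median of 0.23. Their summed intensities were 19960 to 20590 in heterozygous and 22180 to 24110 in homozygous spleens. Prrx1, a homeobox gene of limb and body wall mesenchyme, rose by 0.75, and the stromal chemokine gene Cxcl12 rose by 0.51. The fall was that of the spleen mesenchyme gene Tcf21 (−0.26, adjusted p = 0.0359 in limma), a call lost under 8 of 19 other settings. The number that rose was 2 without heterozygous replicate 1, 2 or 3 in turn and with the Y-linked covariate, and 3 without homozygous replicate 1 or 3. Against the mean of these 12 markers on the same array, a scale chosen after the values were seen, Vcam1 was higher by 0.49 with groups that did not overlap (p = 0.1 in an exact two-sided permutation test, the smallest possible), as for 55.5% of all genes on that scale in either direction. Alcam on that scale was at −0.02 and its groups overlapped.

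Among 10 pericyte and mural markers 3 rose and 2 fell (against 10.4% and 6.56% of all genes), with a median of 0.03. Their summed intensities were 6807 to 6936 in heterozygous and 7311 to 7788 in homozygous spleens. Desmin (Des) rose by 0.64, and the potassium channel genes Abcc9 and Kcnj8 rose by 0.56 and 0.53. The peptidase gene Anpep fell by 0.51, and Pdgfrb, the receptor that recruits pericytes, fell by 0.24. After cyclic loess, with the replicate block, under the Y-linked covariate and without any 1 array but homozygous replicate 2, 1 of the 10 fell. Markers of pancreas and epithelium lay higher too, with 4 of 12 up, 1 down (against 10.4% and 6.56% of all genes) and a median of 0.32. Their summed intensity was 2908 to 4053 in heterozygous and 4574 to 5081 in homozygous spleens, and most of that step was 1 gene, Cpa1, a pancreatic carboxypeptidase, which rose from 534 ± 290.0 to 1664 ± 103 (SD, n = 3). Cldn6 and Epcam were also called higher, and under 19 other settings lay at 0.63 to 1.28 and 0.35 to 0.52. Their calls were lost under 4 and 5 of these settings. Estimates lay above 0 for 11 of the 12 genes. The keratin genes Krt7 (0.11), Krt18 (0.14) and Krt8 (0.24) did not pass, and Sox9, a factor of progenitors in several epithelia, fell by 0.76. The part of neighbouring tissue in the values of Vcam1 and Alcam was not tested. Of these 12 genes 1 rose without heterozygous replicate 2 or homozygous replicate 1, 2 rose without heterozygous replicate 3 or homozygous replicate 3, and 6 rose without heterozygous replicate 1, with medians of 0.26 to 0.38.

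**Figure D5:**
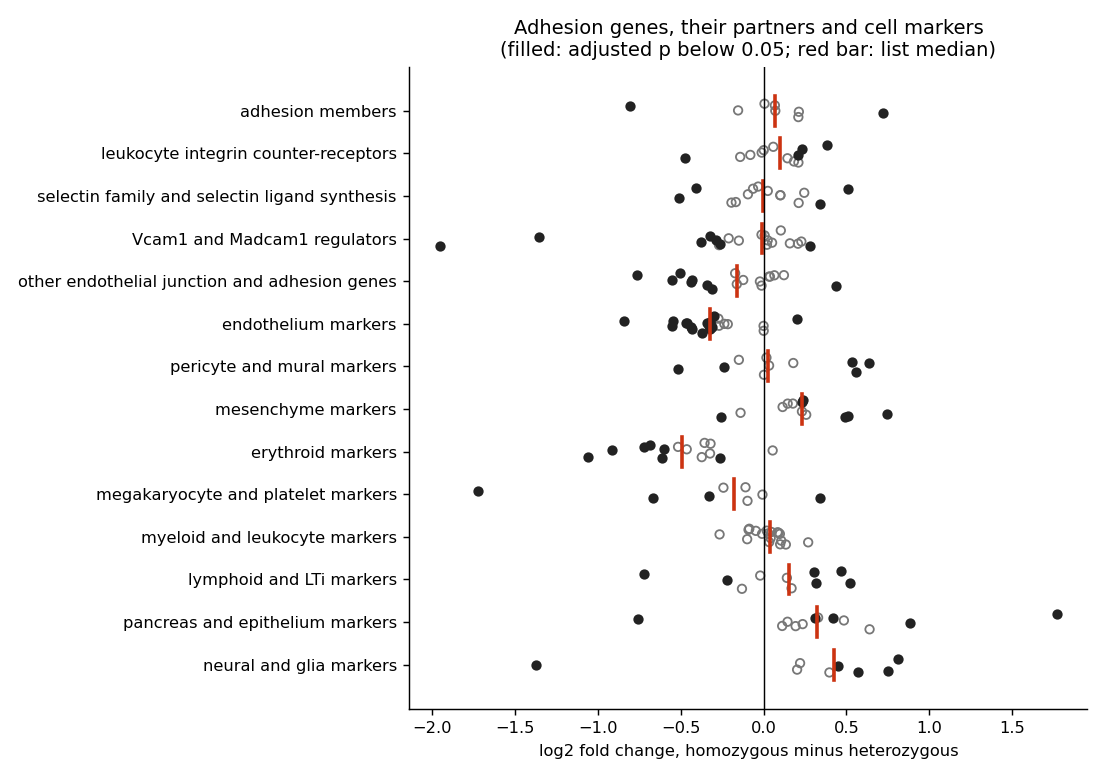
Log2 fold change (x axis, homozygous minus heterozygous) of each measured gene in the adhesion group, in 4 lists of partners and relatives and in 9 lists of cell markers; filled points passed at an adjusted p below 0.05 and red bars are list medians, with vertical scatter added for legibility. Vcam1 (0.72) lies beyond the highest list median, that of neural and glia markers (0.43), and Madcam1 (−0.80) beyond the lowest, that of erythroid markers (−0.49). The medians of pancreas and epithelium (0.32), mesenchyme (0.23) and endothelium (−0.32) lie between. Single genes of the marker lists lie farther out than Vcam1 or Madcam1, such as Prrx1 (0.75), Tek (−0.85) and Ppbp (−1.73).

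The integrins that bind these molecules were read next. Of 12 leukocyte and related integrin genes 3 rose and 1 fell, against 10.4% and 6.56% of all genes. Their median was 0.10 (0.06 without heterozygous replicate 1 and 0.05 after cyclic loess). Itga4, the alpha chain that binds both VCAM1 and MAdCAM1, rose from 143 ± 9.70 to 186 ± 8.15 (SD, n = 3). Its log2 fold change was 0.38 ± 0.07 (SE, adjusted p = 0.0114 in limma). That call was lost without homozygous replicate 1 (0.34, adjusted p = 0.0507) and with the Y-linked covariate (0.33, adjusted p = 0.0765). Itgb7, its partner for MAdCAM1, was at 85.0 ± 9.37 and 98.1 ± 1.74 (SD, n = 3) and did not pass (0.21, adjusted p = 0.121), and neither did Itgb1, its partner for VCAM1 (−0.01, adjusted p = 0.925).

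Of the integrin chains that bind ICAM1, Itgal was at 0.18 (adjusted p = 0.16) and Itgb2 at 0.00 (adjusted p = 0.995), and neither passed. Itga9, whose integrin also binds VCAM1, fell from 637 ± 22.8 to 459 ± 39.4 (SD, n = 3), or by 0.48 on the log2 scale (adjusted p = 0.00632 in limma). The rises of Itgav (0.23, adjusted p = 0.0437) and Itgae (0.21, adjusted p = 0.0431) were lost without any 1 array. The number of the 12 that rose was thus 0 without homozygous replicate 1 or under the Y-linked covariate, and 1 in each of the fits that left out another array.

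Genes that make or carry selectin ligands moved both ways. Of 14 measured members 2 rose and 2 fell (against 10.4% and 6.56% of all genes), with a median near 0 (−0.0036). Fut4, a fucosyltransferase for selectin ligands, fell by 0.51, and Cd24a, a sialoglycoprotein that can bind P-selectin, fell from 4578 ± 362 to 3440 ± 62.3 (SD, n = 3). Chst2, a sulfotransferase for selectin ligands, rose by 0.51, and its relative Chst4 was at 0.34 (adjusted p = 0.0401 in limma), a call lost after quantile normalization, after cyclic loess, under the Y-linked covariate and in 5 of the 6 fits without 1 array.

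Regulators known from Vcam1 and Madcam1 were followed from a list of 20, of which 19 were measured, Tlx1 included by design. Of these 6 fell and 1 rose (against 6.56% and 10.4% of all genes), with a median of −0.01. The falls include Tlx1 itself (−1.95), the gene that differs between the groups by design. Nkx2-3 fell slightly, from 421 ± 27.2 to 337 ± 30.4 (SD, n = 3), a step of −0.32 ± 0.08 in log2 units (SE, adjusted p = 0.0326 in limma). Its call was lost after quantile normalization (−0.25), after cyclic loess (−0.27), with the Y-linked covariate (−0.23), with the replicate block (adjusted p = 0.0506) and in 4 of the 6 fits without 1 array. Nkx2-5, a relative active in spleen mesenchyme, fell from 614 ± 57.4 to 243 ± 52.8 (SD, n = 3), a step of −1.36 in log2 units.

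Ltbr, the lymphotoxin beta receptor that switches on adhesion genes in lymphoid stroma, was at −0.29 ± 0.08 (SE, adjusted p = 0.0392 in limma), a call lost in every fit without 1 array, with the Y-linked covariate (adjusted p = 0.198), and after quantile normalization (0.119) or cyclic loess (0.0773). Irf1, an interferon-response factor that acts on the Vcam1 promoter, fell by 0.38 and did not pass when all its probe sets were averaged (−0.11, adjusted p = 0.354). Of the NF-kB subunits measured, Nfkb2 (0.02), Rela (0.03), Relb (0.01) and Rel (−0.21, adjusted p = 0.0562) did not pass, and Map3k14, the kinase of the alternative NF-kB route, was the rise (0.28, adjusted p = 0.0391). No regulator rose after quantile normalization, median centring or cyclic loess, under the Y-linked covariate, or without any 1 array but homozygous replicate 2. The number that fell was 3 without heterozygous replicate 1 or 3, after quantile normalization, after cyclic loess and under the Y-linked covariate.

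The genes whose pattern over the 6 arrays was most like that of Vcam1 were found by the root mean square difference of gene-centred log2 values. They were Hsd17b7, an enzyme of cholesterol synthesis, the kinase gene Nrk, the matrix gene Adamtsl1, the homeobox gene Hoxc4 and the BMP ligand gene Bmp5, with differences of 0.05 to 0.08 and log2 fold changes of 0.61 to 0.73. For Madcam1 they were Lfng, which modifies Notch receptors, the G protein gamma subunit gene Gng11, the calcineurin regulator Rcan1, Nfam1 and Fam20a. Their differences from Madcam1 were 0.10 to 0.11 and their log2 fold changes −0.92 to −0.75. Each of these 10 genes passed in limma, with adjusted p from 0.00026 to 0.00323, and likeness over 6 arrays in 2 groups mostly reflects the step between the groups.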

How the data were processed

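Total RNA of 6 embryonic spleens or pools was hybridised to Affymetrix mouse arrays. The intensities analysed here are those the authors deposited, on a linear scale, and the submitters' processing notes name GCRMA as the tool, with version and build not given in the sources used here. Of 35512 probe sets 21789 carry 1 symbol in the platform annotation. Probe sets were kept at a log2 value of at least 4 on at least 3 arrays, and the one with the highest mean was used per gene (18710 genes). The lmFit and eBayes functions of limma 3.58.1 (R 4.3.3) were run on log2(intensity + 1) over all 6 arrays, two-sided, with Benjamini-Hochberg adjustment over all genes. Members, lists and settings were chosen with earlier results of these data known. Named are all members, up to 4 called genes per list with the largest change (otherwise the 2 with the smallest p), 8 direct partners, and the 5 genes most like Vcam1 and like Madcam1; not all are described. Cd47, Stab1, Krt7, Krt18, Krt8, Pdgfrb, Itgb1, Map3k14, Csf1r, Ptprc, Tcf21, Wt1, Cdh5 and the NF-kB genes were named partly after their values were seen. Scan dates were not analysed here. The fit was tested on simulated data, and the number of arrays limits the precision.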

Additional observations from a re-analysis of the deposited data

How the results depend on the processing

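Vcam1 and Madcam1 kept their direction and their call under all 19 other settings (0.63 to 0.81 and −0.94 to −0.73; adjusted p up to 0.0201 and 0.0262). The number of members called was 2 under 16 of them, 3 with 16 added before the logarithm or with array weights, and 4 with a variance trend. The number of genes called ranged from 1198 to 3563 without 1 array and was 1647 with the Y-linked covariate; the cause was not tested. Signs turned only for genes that did not pass. Selplg was at −0.03 after quantile normalization, −0.01 after median centring, −0.08 after cyclic loess and −0.07 to 0.10 without 1 array, Icam4 at −0.04 after cyclic loess and −0.01 with the covariate, and Itgb2 at −0.05 after quantile normalization, −0.02 after median centring, −0.10 after cyclic loess, −0.01 with array weights and −0.08 to 0.05 without 1 array; the cause was not tested. Of 57 named partner genes 32 kept direction and call under every setting and 20 lost a call under at least 1. The labels do not say that replicate numbers pair the samples. Deviations of same-numbered arrays correlated at −0.01, 0.04 and −0.11. The highest correlation was that of heterozygous array 3 with homozygous array 1 (0.098). All these values are small, and with 3 arrays per group they cannot exclude a pairing. With the replicate block 3163 genes were called, Vcam1 was at 0.72 (adjusted p = 0.00375) and Madcam1 at −0.80 (adjusted p = 0.00702).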

Other observations

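Other marker lists were read in the same spleens, as values with no explanation. Across all genes 10.4% rose and 6.56% fell. Of 8 mesothelium markers 1 rose and 1 fell (median −0.06). Msln, a surface protein of mesothelium, rose by 0.47 on the log2 scale and Wt1 fell from 2208 ± 43.1 to 1758 ± 97.7 (SD, n = 3), a call lost without homozygous replicate 1 and under the Y-linked covariate. Of 8 measured neural and glia markers 4 rose and 1 fell (median 0.43). The growth cone gene Gap43 rose by 0.75 and the neuronal microtubule gene Stmn2 by 0.81, while Fabp7, a fatty acid binding protein of glia, fell from 317 ± 49.6 to 121 ± 13.6 (SD, n = 3). In the same list Sox10 was called higher, the opposite side to Fabp7. It lay at 0.39 to 0.88 under 19 other settings and lost its call under 3 of them.

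Of 10 measured lymphoid and lymphoid tissue inducer markers 4 rose and 2 fell, against 10.4% and 6.56% of all genes (median 0.16). The median was 0.31 over the 6 genes left by the stricter filter on low values, 0.07 when homozygous replicate 3 was left out and 0.06 with cyclic loess, and the lowest group mean was 18.0 intensity units (Cd79a). The number that rose was 1 without heterozygous replicate 2 or homozygous replicate 1 and 2 without heterozygous replicate 1 or homozygous replicate 3 and under the Y-linked covariate, and 1 fell in each fit without 1 array. Id2, which blocks bHLH factors, rose by 0.52, and Kit, the stem cell factor receptor, fell from 521 ± 17.4 to 315 ± 13.7 (SD, n = 3). The rises also include Cd4 (0.47), which was dim, with means of 25.4 in heterozygous and 35.3 in homozygous spleens. Cd3e was called higher too, and the calls of Cd4 and of Cd3e were each lost under 4 of 19 other settings. Of 8 measured megakaryocyte and platelet markers 3 fell and 1 rose (median −0.18). The platelet chemokine gene Ppbp fell from 565 ± 92.7 to 179 ± 74.8 (SD, n = 3), and Vwf, made by endothelium as well as by megakaryocytes, was at 0.34 (adjusted p = 0.0281 in limma), a call lost without heterozygous replicate 1 or 2, without homozygous replicate 2 or 3 and under the Y-linked covariate.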
